A study of Rattus norvegicus with 12 samples.

Results

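The corpus luteum (CL) of the pregnant rat was compared between day 12 and day 16 of pregnancy, in the arrays of VEH treated rats on day 16 and of untreated rats on day 12. These are 6 of the 12 arrays of the series, 3 in each group, chosen by their titles alone. All rats were pregnant Wistar rats, and the arrays held total RNA of whole CL taken from the ovary, of 1 rat on each array. Day 12 rats had no treatment, and VEH rats were given the vehicle (2% ethanol) by mouth once a day for 4 days (96 h) from day 12. The other groups of the series had 3 rats each. They were treated over the same days with an aromatase inhibitor (AI, 1 mg/kg BW orally), alone or with E2 (AI+E2, 10 µg per day under the skin), and enter here through the shared estimate of spread and, where stated, as means. Every VEH rat was 4 days later in pregnancy and had also been given the vehicle by mouth, so the day and the handling cannot be told apart.

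The CL is the gland that forms from the follicle after ovulation, and its progesterone (P4) maintains pregnancy. Its luteal cells make P4 from cholesterol, which they take up from lipoproteins or make themselves, and they lie in a dense bed of capillaries. In the rat, LH and prolactin act early on luteal cells. In the second part of pregnancy luteal aromatase makes E2 within the gland from androgens brought by the blood.

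The deposited values are RMA levels on the log2 scale, so a difference of 1 is a 2-fold difference. Levels were taken for 14509 genes, each from a single probe set. A gene is said to rise or fall where its adjusted p (limma, Benjamini-Hochberg over the 14509 genes, 8 residual degrees of freedom) was under 0.05. With 3 arrays in each group an exact two-sided permutation test of a single gene has 0.1 as its smallest p. Differences are VEH minus day 12 with the standard error (SE) of the fit. The median of each of the 12 arrays was between 6.51 and 6.56, and no 2 arrays held identical values. Of 9 measured genes that mark luteal cells, 3 fell (*Fdx1*, *Nr5a2* and *Akr1c3*) and 0 rose, with a median difference of -0.18. Over all genes 3.23% fell and 6.91% rose. *Fdx1*, *Prlr*, *Nr5a2*, *Star*, *Cyp11a1*, *Lhcgr* and *Scarb1* lay at 10.01 or above in all 6 arrays and *Inha* at 8.65 to 10.31. *Akr1c3* lay at 6.23, 6.63 and 6.79 in VEH, about the median of an array. The mean over the 9 was 11.23 to 11.36 on day 12 and 10.76 to 10.86 in VEH, and *Akr1c3* had the largest difference of them (-2.75). Day 12 replicate 2 stood apart, with 21 genes at least 0.5 above all 11 other arrays of the series, 16 of them from the interferon lists described last. None of the other arrays had more than 6 such genes. The interferon results are given with and without it.

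Across the CL transcriptome, 1003 of 14509 genes (6.91%) rose from day 12 to day 16 and 469 (3.23%) fell. At 1.5-fold or more, 163 genes (1.12%) rose and 76 (0.524%) fell, and at 2-fold or more 40 (0.276%) rose and 28 (0.193%) fell. All 3 VEH arrays lay above all 3 day 12 arrays in 12.5% of genes and below them in 11.8%. The median difference over all genes was -0.02. Of the calls, 68.1% were rises, and this split moved to 54.4% (928 rises and 778 falls) when the arrays were made equal in distribution once more. Without day 12 replicate 1 the rises numbered 654. The falls were led by genes of cholesterol synthesis, and the list plot gives the share of members that rose or fell in each gene and marker list.

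**Figure D1:**
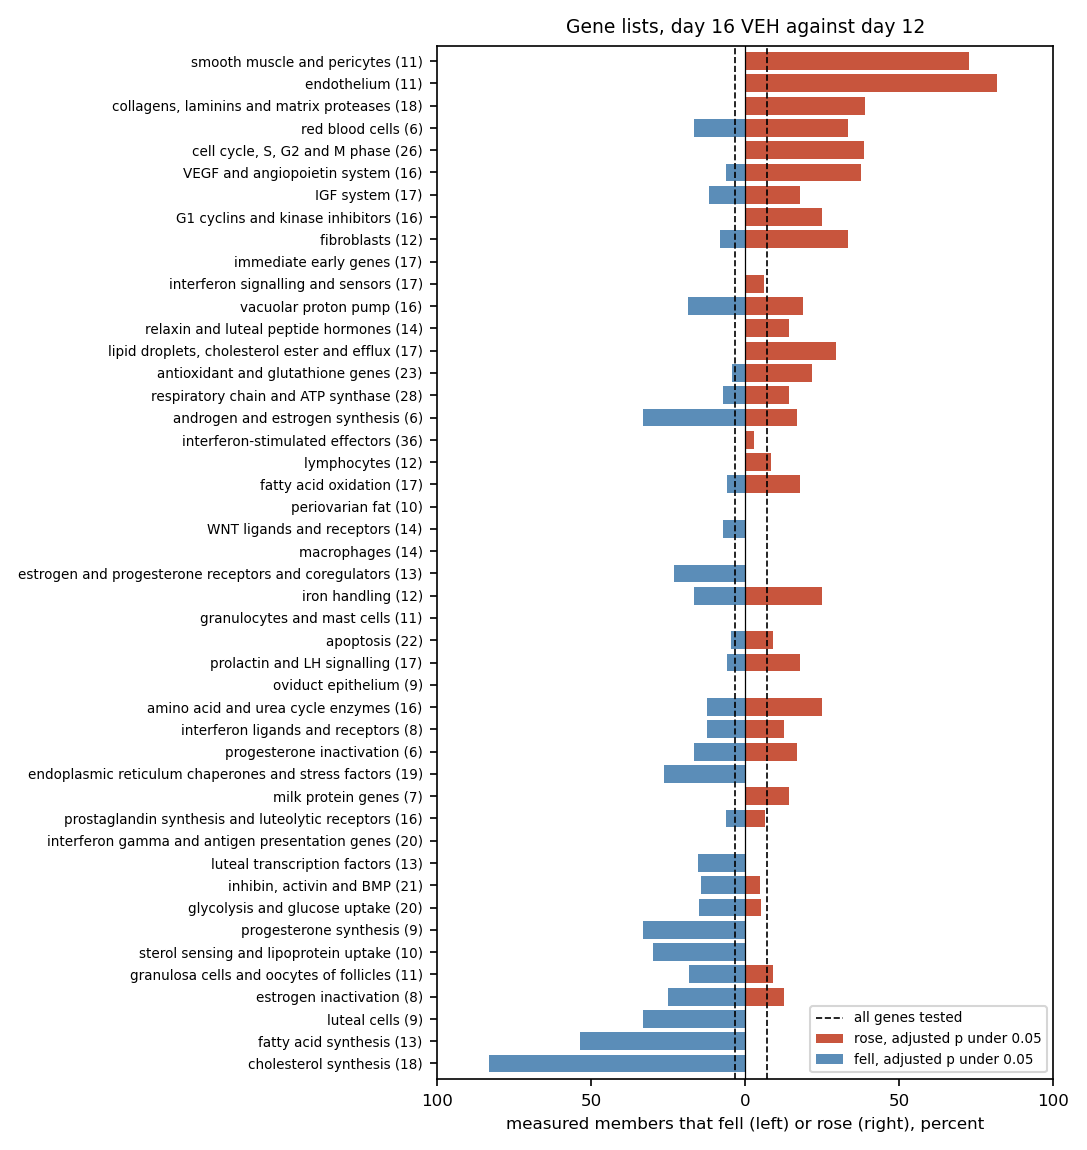
Share of the measured members of each gene list (number measured in parentheses) that fell (left, percent) or rose (right, percent) from day 12 to day 16 VEH at an adjusted p under 0.05, ordered by the median difference of the list. Dashed lines mark the shares over all genes tested, 3.23% and 6.91%. Cholesterol synthesis lies at the foot with 15 of 18 members lower, and the lists of endothelium and of smooth muscle lie at the top.

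Cholesterol synthesis runs from acetyl-CoA through isoprenoid units and squalene to the sterol ring, which is then trimmed to cholesterol. Its genes are known targets of SREBP transcription factors, which are held in the endoplasmic reticulum by INSIG proteins when sterols are plentiful and which act with the CCAAT-binding factor NF-Y. Of 18 measured genes of the list, 15 fell and 0 rose, against 3.23% and 6.91% of all genes. The median difference was -1.31 against -0.02 over all genes. In 16 of 18 genes all VEH arrays lay below all day 12 arrays (11.8% of all genes). The 15 falls were counted again without any 1 of the 6 arrays, with medians between -1.34 and -1.31.

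*Idi1*, which makes the second isoprenoid unit, was measured at 9.83, 9.83 and 9.97 on day 12 and at 7.06, 6.70 and 7.60 in VEH and fell by 2.76 (SE 0.16, adjusted p = 2.3e-08), 6.75-fold lower. It was the gene with the largest fall of all genes called. *Fdps*, the enzyme that joins these units to farnesyl diphosphate, lay at 11.01, 11.13 and 11.15 on day 12 and at 9.40, 9.59 and 9.58 in VEH (-1.58, SE 0.07, adjusted p = 1.2e-09). The groups lay well apart in both genes.

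*Sqle*, the squalene epoxidase and a rate-limiting step of the sterol branch, had 9.89, 9.67 and 9.92 on day 12 and 7.99, 7.78 and 7.95 in VEH (-1.92, SE 0.08, adjusted p = 9.4e-10). *Cyp51*, the lanosterol demethylase, had 11.06, 10.90 and 11.19 on day 12 and 8.70, 8.60 and 8.82 in VEH, a 5.09-fold fall with the smallest p of the list (adjusted p = 1.8e-10). *Msmo1*, the methylsterol oxidase of the next step, had 11.54, 11.48 and 11.64 on day 12 and 9.04, 8.61 and 9.25 in VEH, a 6.01-fold fall. Each of these enzymes acts between squalene and the trimmed sterol ring, and in none did a VEH array reach a day 12 array.

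*Tm7sf2*, a sterol reductase, had 9.61, 8.99 and 9.75 on day 12 and 7.22, 6.96 and 7.28 in VEH, 4.91-fold lower, with day 12 replicate 2 the lowest of its group. *Nsdhl*, which takes part in removing the same methyl groups, had 10.21, 10.34 and 10.29 on day 12 and 8.59, 8.48 and 8.72 in VEH, 3.2-fold lower. *Ebp*, a sterol isomerase, had 9.99, 9.76 and 10.10 on day 12 and 8.58, 8.18 and 8.47 in VEH, 2.92-fold lower. The other falls of the list, named here after their values were seen, were *Sc5d* (-1.38), *Acat2* (-1.25), *Lss* (-1.24), *Fdft1* (-1.02), *Mvd* (-0.75), *Dhcr7* (-0.47) and *Pmvk* (-0.42).

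The 3 members that did not pass the test, of which *Mvk* and *Ggps1* are named after their values were seen, were *Mvk* (-0.20, adjusted p = 0.061), *Ggps1* (0.05, adjusted p = 0.75) and *Hsd17b7*. *Hsd17b7*, which serves both sterol synthesis and the reduction of estrone to E2, lay at 12.77, 12.68 and 12.73 on day 12 and at 12.72, 12.81 and 12.77 in VEH, a difference of 0.04 with a 95% interval from -0.09 to 0.17. The 2 groups overlapped in *Hsd17b7* and in *Ggps1*.

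**Figure D2:**
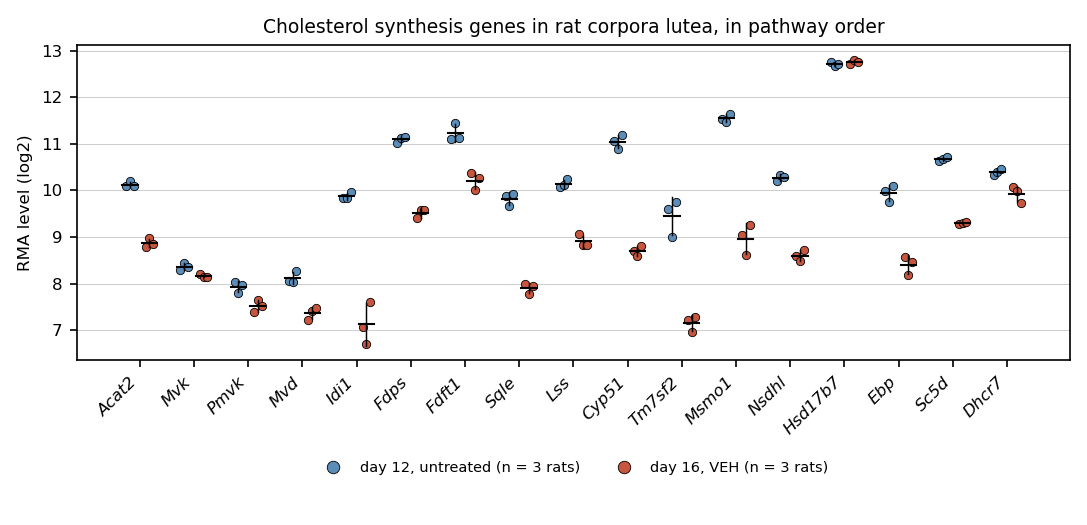
RMA levels (log2, vertical axis, which does not start at 0) of 17 cholesterol synthesis genes in pathway order, 1 point per rat, with the mean (line) and SD (bar) of 3 day 12 (blue) and 3 VEH (red) rats. The VEH points of *Idi1*, *Cyp51*, *Tm7sf2* and *Msmo1* lie more than 1 log2 unit below those of day 12, and those of *Hsd17b7* overlap them. Heights are comparable within a gene and not between genes.

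Of the sterol sensing and uptake list, 3 of 10 measured genes fell and 0 rose, against 3.23% and 6.91% of all genes. *Insig1*, the INSIG protein that is itself induced when sterols are short, went from 11.61, 11.67 and 11.82 to 9.94, 9.87 and 10.13 and fell by 1.72 (SE 0.08, adjusted p = 1.9e-09). *Srebf2*, which encodes the SREBP of sterol synthesis, went from 9.45, 9.37 and 9.53 to 8.94, 8.92 and 8.87 (-0.54, SE 0.06, adjusted p = 1.6e-05). *Stard4*, a carrier of cholesterol within the cell, fell by 0.44 (adjusted p = 0.0047). *Scarb1*, the receptor for HDL through which rat luteal cells take up cholesterol, lay at 12.63, 12.56 and 12.60 on day 12 and at 12.55, 12.62 and 12.46 in VEH and did not pass the test (-0.06, adjusted p = 0.62), and it is named after its values were seen.

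Fatty acid synthesis shares the acetyl-CoA pool and the SREBP factors with sterol synthesis. Of 13 measured genes, 7 fell and 0 rose, with a median of -0.23, where 3.23% of all genes fell and 6.91% rose. *Acss2*, which makes cytosolic acetyl-CoA from acetate, went from 9.44, 9.35 and 9.68 on day 12 to 7.56, 7.37 and 7.24 in VEH and fell by 2.10 (SE 0.10, adjusted p = 2.1e-09). *Acly*, which makes it from citrate, went from 9.21, 9.17 and 9.34 to 8.31, 8.33 and 8.29 (-0.93, adjusted p = 6.2e-07). In both genes all VEH arrays lay below all day 12 arrays.

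*Scd*, the stearoyl-CoA desaturase, had 9.55, 8.81 and 9.62 on day 12 and 7.56, 7.82 and 7.97 in VEH (-1.54, SE 0.17, adjusted p = 2.3e-05). *Elovl6*, a fatty acid elongase, fell by 1.14 and *Fads1*, a desaturase of polyunsaturated fatty acids, by 1.05. In the list of lipid droplets, cholesterol ester and efflux the direction was the opposite, with 5 of 17 genes higher and 0 lower. Over all genes 6.91% rose and 3.23% fell. *Abca1*, the pump that passes cholesterol to apolipoproteins, went from 8.45, 8.22 and 8.53 to 9.01, 9.18 and 9.27 (0.76, SE 0.09, adjusted p = 6.4e-05). *Plin2*, the coat protein of lipid droplets, went from 8.09, 8.57 and 8.34 to 9.20, 8.99 and 8.78 (0.65, adjusted p = 0.0012). *Abcg1* rose by 0.40 and the fatty acid transporter *Cd36* by 0.50. *Dgat1* rose by 0.39 (adjusted p = 0.022), a call lost without day 12 replicate 1 or 2 or VEH replicate 1 (0.36, 0.34 and 0.24).

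The promoters of cholesterol synthesis genes are shown because 15 of these genes fell together. They are the 250 bases before a RefSeq transcript start (build GRCr8), read 5′ to 3′ on the strand of the gene, and promoters were held for 11950 of the 14509 genes. The 3 with the largest falls among those that hold a CCAAT box are printed, with CCAAT, or ATTGG where it lies on the other strand, in capitals. The letters CCAAT were searched on both strands.
Idi1, chr17:66547525-66547774 (minus strand): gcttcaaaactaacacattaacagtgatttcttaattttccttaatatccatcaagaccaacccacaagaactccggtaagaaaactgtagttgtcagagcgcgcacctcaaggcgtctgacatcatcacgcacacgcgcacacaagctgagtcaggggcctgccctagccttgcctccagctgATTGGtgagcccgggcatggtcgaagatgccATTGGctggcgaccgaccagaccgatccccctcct
Msmo1, chr16:29746863-29747112 (plus strand): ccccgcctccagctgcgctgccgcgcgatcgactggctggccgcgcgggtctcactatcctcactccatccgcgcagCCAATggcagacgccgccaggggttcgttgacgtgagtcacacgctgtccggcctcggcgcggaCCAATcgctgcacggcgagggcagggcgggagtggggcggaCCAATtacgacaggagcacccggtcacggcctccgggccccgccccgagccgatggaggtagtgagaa
Tm7sf2, chr1:212789542-212789791 (minus strand): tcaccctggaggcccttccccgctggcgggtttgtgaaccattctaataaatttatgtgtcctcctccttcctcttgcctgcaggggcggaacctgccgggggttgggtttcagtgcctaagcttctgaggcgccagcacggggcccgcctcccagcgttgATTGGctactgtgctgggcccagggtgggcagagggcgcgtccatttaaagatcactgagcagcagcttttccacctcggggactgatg
A CCAAT box lay in 12 of 15 promoters held for the cholesterol synthesis list (80%), against 36.2% of all 11950 genes with a promoter. It lay in 6 of 8 promoters of the sterol sensing list and in 7 of 10 of the fatty acid synthesis list. Among the 12 were *Hsd17b7*, *Ggps1* and *Mvk*, which did not pass the test. A match of these letters is a description of the sequence and not of binding.

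P4 is made in 2 steps, from cholesterol to pregnenolone within mitochondria and from there to P4. Of 12 genes listed for P4 synthesis 9 were measured, and of these 0 rose and 3 fell, against 6.91% and 3.23% of all genes. *Star*, which carries cholesterol into mitochondria, had 12.72, 12.72 and 12.70 on day 12 and 12.64, 12.70 and 12.58 in VEH, and *Cyp11a1*, the side chain cleavage enzyme, had 12.65, 12.59 and 12.72 on day 12 and 12.71, 12.78 and 12.65 in VEH. Neither passed the test (-0.07, adjusted p = 0.45, and 0.06, adjusted p = 0.58), with 95% intervals from -0.19 to 0.04 and from -0.07 to 0.20. Both were near the top of the scale of the arrays in all 6 rats.

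*Fdx1*, the ferredoxin that hands electrons to CYP11A1, went from 10.65, 10.52 and 10.80 on day 12 to 10.06, 10.01 and 10.11 in VEH (-0.60, SE 0.07, adjusted p = 6.4e-05). *Hsd3b2*, a hydroxysteroid dehydrogenase whose family turns pregnenolone into P4, went from 7.94, 7.79 and 7.69 to 7.20, 7.28 and 7.52 (-0.48, SE 0.09, adjusted p = 0.0035). *Cyb5a*, a cytochrome b that serves several P450 enzymes, fell by 0.31 (adjusted p = 0.016), a call lost without day 12 replicate 1 or 3 or VEH replicate 1 (-0.29, -0.27 and -0.23). The others were *Tspo* (0.22, adjusted p = 0.25), *Stard3* (0.17, adjusted p = 0.13), *Por* (0.0028, adjusted p = 0.99) and *Hsd3b5* (-0.08, adjusted p = 0.39). The genes of the *Hsd3b* family are alike in sequence, so the share of each in its probe set is uncertain. *Hsd3b1* was not among the genes measured.

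Among genes of P4 inactivation, *Akr1c3* fell more than any other gene but *Idi1* with all arrays. The symbol stands for the gene long written *Akr1c18*, whose enzyme reduces P4 at carbon 20 to an inactive progestin. The enzyme is described as low in the CL of pregnancy until near term. On day 12 here its RNA lay above the upper quartile of each array. It lay at 8.98, 9.95 and 8.96 on day 12 and at 6.23, 6.63 and 6.79 in VEH and fell by 2.75 (SE 0.24, adjusted p = 3.2e-06) or 6.71-fold. Day 12 replicate 2 was the highest array and raised the day 12 mean, so the size of this fall and its rank depend in part on that array. No VEH array came near the lowest day 12 array. *Akr1c14*, which reduces 3-keto steroids, moved the other way, from 8.31, 8.47 and 8.63 to 9.33, 9.26 and 9.19 (0.79, SE 0.09, adjusted p = 5e-05). *Akr1c1*, *Akr1c2*, *Akr1c15* and *Srd5a3* did not pass the test, with differences of -0.02, 0.06, -0.06 and -0.06 and adjusted p of 0.84, 0.59, 0.62 and 0.71. Members of this family are near-identical in parts, so their probe sets may share signal.

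Androgen and estrogen synthesis were measured by 6 genes. *Cyp19a1*, the aromatase that turns androgens into estrogens, went from 11.36, 11.55 and 11.45 on day 12 to 12.08, 12.09 and 12.11 in VEH (0.64, SE 0.06, adjusted p = 5.6e-06), 1.56-fold higher. The VEH arrays lay close together and above every day 12 array. *Cyp17a1*, which makes androgens from progestins, went the other way, from 7.98, 7.70 and 7.95 to 6.27, 6.46 and 6.39 (-1.50, SE 0.10, adjusted p = 7.2e-08), 2.84-fold lower. *Hsd17b12* fell by 0.35 (adjusted p = 0.019), a call lost without day 12 replicate 1 or 3 or VEH replicate 1 (-0.33, -0.27 and -0.34).

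*Hsd17b1*, the enzyme of E2 synthesis in granulosa cells, was spread widely within both groups, at 8.24, 7.45 and 8.43 on day 12 and 9.36, 8.13 and 7.30 in VEH (0.22, SE 0.43, adjusted p = 0.8). *Hsd17b3* lay between 4.65 and 4.85 in all 6 arrays (0.06, adjusted p = 0.57). *Inha*, the inhibin subunit of granulosa and luteal cells, named after its values were seen, was uneven in the same arrays as *Hsd17b1*, at 10.13, 8.81 and 10.31 on day 12 and 10.14, 9.43 and 8.65 in VEH. The 11 measured markers of granulosa cells and oocytes had means of 7.08 to 7.29 in the day 12 arrays and 6.95 to 7.27 in the VEH arrays. Of them *Cyp19a1* rose and the oocyte genes *Zp3* (-0.30) and *Gdf9* (-0.32) fell. The call of *Zp3* was lost without day 12 replicate 1 or 2 or VEH replicate 1 or 2 (-0.28, -0.26, -0.21 and -0.28), and that of *Gdf9* without day 12 replicate 1 or 2 or VEH replicate 1 (-0.29, -0.29 and -0.22). The part of follicle cells in the differences was not tested.

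Of 8 genes of E2 inactivation, 1 rose and 2 fell, all by small amounts, where 6.91% of all genes rose and 3.23% fell. *Sts*, the sulfatase that frees estrogens, rose by 0.30 (adjusted p = 0.035). *Sult1a1*, a sulfotransferase, fell by 0.39 (adjusted p = 0.015) and the hydroxylase *Cyp1b1* fell by 0.41 (adjusted p = 0.045). The call of *Sts* was lost without day 12 replicate 1 or 2 or VEH replicate 1 or 2 (0.32, 0.23, 0.20 and 0.33). That of *Sult1a1* was lost without day 12 replicate 3 or VEH replicate 1 (-0.29 and -0.32), and that of *Cyp1b1* without day 12 replicate 1, 2 or 3 or VEH replicate 1, 2 or 3 (-0.47, -0.35, -0.39, -0.36, -0.41 and -0.44).

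**Figure D3:**
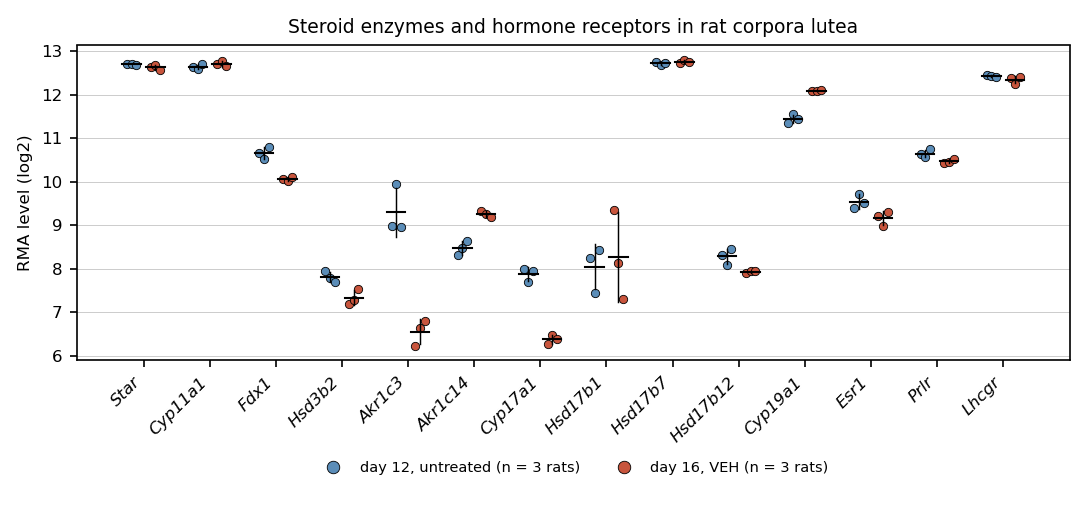
RMA levels (log2, vertical axis, which does not start at 0) of steroid enzymes and hormone receptors, 1 point per rat, with the mean (line) and SD (bar) of 3 day 12 (blue) and 3 VEH (red) rats. *Akr1c3* and *Cyp17a1* lie lower in VEH and *Cyp19a1* and *Akr1c14* higher, while *Star*, *Cyp11a1*, *Hsd17b7* and *Lhcgr* hardly move.

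The hormones that maintain the rat CL act through LH, prolactin and estrogen receptors. *Lhcgr*, the LH receptor, lay at 12.46, 12.44 and 12.42 on day 12 and at 12.39, 12.25 and 12.41 in VEH (-0.09, 95% interval from -0.21 to 0.04, adjusted p = 0.39). *Prlr*, the prolactin receptor, lay at 10.63, 10.57 and 10.74 on day 12 and 10.44, 10.45 and 10.52 in VEH (-0.18, 95% interval from -0.32 to -0.04, adjusted p = 0.11). In both genes all VEH arrays were below all day 12 arrays, as in 11.8% of all genes, and neither passed the test.

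*Esr1*, encoding ERα, went from 9.39, 9.72 and 9.52 to 9.22, 8.97 and 9.31 (-0.38, SE 0.10, adjusted p = 0.028). This call was lost without day 12 replicate 2 or 3 or VEH replicate 1 or 2 (-0.29, -0.39, -0.40 and -0.28), and another probe set of the gene differed by -0.24 (adjusted p = 0.052 over all probe sets). *Esr2*, encoding ERβ, had 7.48, 7.02 and 7.58 on day 12 and 7.82, 7.50 and 7.30 in VEH and did not pass the test (0.18, adjusted p = 0.48). *Pgrmc1*, a membrane protein that binds heme and has been linked to P4, fell by 0.26 (adjusted p = 0.011), and the corepressor *Ncor1* fell by 0.24 (adjusted p = 0.025), a call lost without day 12 replicate 2 or 3 or VEH replicate 1 or 3 (-0.24, -0.21, -0.24 and -0.22).

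The list for prolactin and LH signalling, which holds the related growth hormone receptor, gave 3 rises and 1 fall in 17 genes. Over all genes 6.91% rose and 3.23% fell. *Ghr*, the growth hormone receptor, went from 7.20, 7.26 and 7.51 to 8.09, 8.12 and 8.04 (0.77, SE 0.09, adjusted p = 6.4e-05), and *Jak2*, the kinase that works at this receptor and at PRLR, from 7.97, 8.25 and 8.38 to 7.74, 7.73 and 7.85 (-0.43, SE 0.09, adjusted p = 0.0064). *Socs3* rose by 0.37 and *Adcy3* by 0.25. The call of *Socs3* was lost without day 12 replicate 2 or 3 or VEH replicate 1 or 2 (0.33, 0.36, 0.39 and 0.23), and that of *Adcy3* without day 12 replicate 1, 2 or 3 or VEH replicate 1 or 3 (0.23, 0.26, 0.26, 0.19 and 0.21). Of the 13 luteal transcription factors measured, 2 fell, against 3.23% of all genes. *Nr5a2*, the nuclear receptor LRH-1, fell by 0.27 (adjusted p = 0.01). *Nr0b2*, the receptor SHP that represses it, fell by 0.41 (adjusted p = 0.024), a call lost without day 12 replicate 2 or 3 or VEH replicate 2 or 3 (-0.29, -0.41, -0.32 and -0.42).

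In the IGF system 3 of 17 genes rose and 2 fell, against 6.91% and 3.23% of all genes. *Igf1r*, the receptor, went from 10.01, 9.83 and 10.14 to 9.44, 9.41 and 9.47 (-0.55, SE 0.07, adjusted p = 8.9e-05). The ligand *Igf1* had 9.31, 9.54 and 9.47 on day 12 and 9.56, 9.70 and 9.55 in VEH and did not pass the test (0.16, adjusted p = 0.33). The binding protein *Igfbp5* had 7.76, 7.91 and 7.96 on day 12 and 7.65, 7.63 and 7.70 in VEH. All VEH arrays were lower, as in 11.8% of all genes, and there was no call (-0.21, adjusted p = 0.18). *Igfbp7*, which is abundant in vessels, rose by 0.33 (adjusted p = 0.0058).

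*Pappa*, the protease that cleaves IGF binding proteins, fell by 0.26 (adjusted p = 0.039), a call lost without day 12 replicate 2 or 3 or VEH replicate 1 or 2 (-0.20, -0.25, -0.20 and -0.28). Rises were also called for *Igfbp3* (0.28, adjusted p = 0.023) and *Igfbp4* (0.23, adjusted p = 0.038). That of *Igfbp3* was lost without day 12 replicate 2 or VEH replicate 1 or 2 (0.24, 0.27 and 0.24), and that of *Igfbp4* without day 12 replicate 1 or 2 or VEH replicate 1 or 2 (0.22, 0.20, 0.21 and 0.19).

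Most markers of vessels rose, where 6.91% of all genes rose and 3.23% fell. Of 11 measured endothelial markers, 9 rose and 0 fell, with a median of 0.38, and in 10 of 11 all VEH arrays were above all day 12 arrays (12.5% of all genes). Without any 1 array, 6 to 8 of them rose. The mean over the markers was 8.37 to 8.52 in the day 12 arrays and 8.79 to 8.81 in the VEH arrays. Whole CL were measured, so more cells of a type and more RNA per cell cannot be told apart.

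*Eng*, the endothelial coreceptor endoglin, went from 10.24, 10.37 and 10.32 to 10.81, 10.93 and 10.67 (0.49, SE 0.07, adjusted p = 0.00026). *Emcn*, the surface protein endomucin, went from 9.83, 9.87 and 9.93 to 10.15, 10.35 and 10.50 (0.46, adjusted p = 0.0016), *Egfl7*, a secreted protein of endothelial cells, rose by 0.45 and *Esam*, a junction protein, by 0.38. *Cldn5* (-0.0003, adjusted p = 0.998) and *Robo4* (0.20, adjusted p = 0.069) were the 2 that did not pass and are named after their values were seen.

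In the VEGF and angiopoietin system 6 of 16 genes rose and 1 fell, against 6.91% and 3.23% of all genes. *Flt1*, a VEGF receptor, went from 8.71, 9.03 and 8.86 to 9.52, 9.39 and 9.34 (0.55, SE 0.09, adjusted p = 0.00093). *Tek* and *Tie1*, the angiopoietin receptors, rose by 0.46 and 0.38 (adjusted p = 0.003 and 0.0083). *Vegfa* rose by 0.27 (adjusted p = 0.013), a call lost without day 12 replicate 1 or VEH replicate 2 (0.25 and 0.25), and *Vegfb* went from 9.06, 9.44 and 9.17 to 8.85, 8.76 and 8.68 (-0.46, SE 0.08, adjusted p = 0.0021). Without day 12 replicate 1, 3 of the 16 genes rose.

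Of 11 markers of smooth muscle and pericytes, 8 rose and 0 fell, against 6.91% and 3.23% of all genes. The median difference of the markers was 0.43, and 7 to 9 of them rose without any 1 array. Their mean was 8.54 to 8.56 in the day 12 arrays and 8.86 to 9.18 in the VEH arrays, highest in VEH replicate 2. *Tagln*, an actin-binding protein of smooth muscle, went from 9.04, 8.96 and 9.19 to 9.84, 10.19 and 9.61 (0.81, SE 0.12, adjusted p = 0.00039). *Mcam* and *Pdgfrb*, surface proteins of pericytes, rose by 0.66 and 0.33 (adjusted p = 0.00053 and 0.0041), the filament protein *Des* by 0.63 and the myosin light chain *Myl9* by 0.59.

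**Figure D4:**
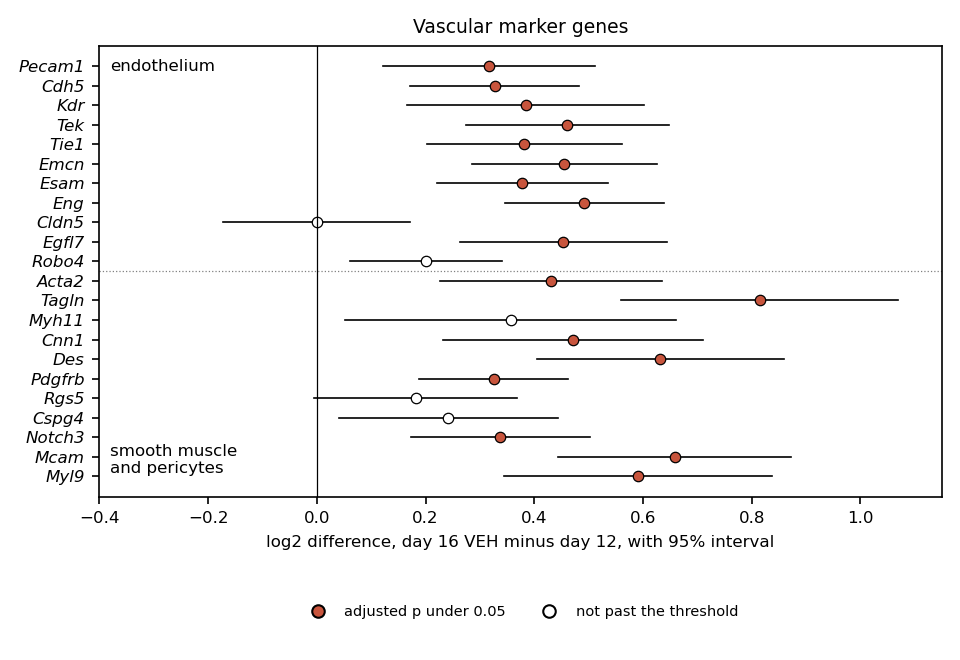
Differences (log2, VEH minus day 12, horizontal axis) of 11 endothelial markers and 11 markers of smooth muscle and pericytes, with 95% intervals of the limma fit over 12 arrays. Filled points, 9 and 8, had an adjusted p under 0.05, and *Cldn5* lies at 0.

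Of 18 measured genes of collagens, laminins and matrix proteases, 7 rose and 0 fell, against 6.91% and 3.23% of all genes. *Col4a1*, a chain of basement membrane collagen, went from 7.66, 7.50 and 7.68 to 8.25, 8.37 and 8.04 (0.61, SE 0.08, adjusted p = 0.00011). *Lox*, which crosslinks collagen, rose by 0.51, *Mmp19*, a protease, by 0.60 and *Sparc* by 0.42. Without VEH replicate 1, and likewise without VEH replicate 2, 4 of the 18 rose. The collagen chains *Col3a1* (0.35), *Col1a1* (0.44) and *Col1a2* (0.33) were among the 7. The call of *Col3a1* was lost without day 12 replicate 2 or VEH replicate 1 or 2 (0.30, 0.26 and 0.32). That of *Col1a1* was lost without day 12 replicate 2 or VEH replicate 1 or 2 (0.29, 0.42 and 0.32), and that of *Col1a2* without day 12 replicate 1, 2 or 3 or VEH replicate 1 or 2 (0.37, 0.27, 0.35, 0.33 and 0.21).

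Of the 12 markers of fibroblasts, 4 rose and 1 fell, against 6.91% and 3.23% of all genes. *Thy1*, a surface protein of fibroblasts and also of some T cells and neurons, went from 8.34, 8.42 and 8.34 to 9.40, 9.29 and 9.27 (0.95, SE 0.08, adjusted p = 1.8e-06). *Dcn*, the matrix proteoglycan decorin, fell by 0.41 (adjusted p = 0.018), a call lost without day 12 replicate 2 or VEH replicate 1 or 3 (-0.34, -0.32 and -0.40). The collagens above were the other rises, and 1 of the 12 genes, *Thy1*, rose without day 12 replicate 2, without VEH replicate 1 and without VEH replicate 2.

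Genes of the S, G2 and M phases of the cell cycle gave 10 rises and 0 falls in 26 measured, with a median of 0.23. Over all genes 6.91% rose and 3.23% fell. Without day 12 replicate 2, in which the mean over the list was lowest (6.38), 5 of the 26 rose. *Top2a*, the topoisomerase of dividing cells, went from 7.01, 6.80 and 7.15 to 7.56, 7.61 and 7.52 (0.57, SE 0.10, adjusted p = 0.0017). *Ccna2*, the cyclin of S phase, went from 6.13, 5.99 and 6.13 to 6.64, 6.56 and 6.43 (0.46, SE 0.07, adjusted p = 0.00062). *Cdk1* rose by 0.31, and the spindle proteins *Tpx2* and *Kif11* rose by 0.49 and 0.26. After the 50% of genes of lowest mean were left out, 6 of the 26 were tested and 1 rose.

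Of 16 genes of the G1 phase 4 rose and 0 fell, against 6.91% and 3.23% of all genes. *Cdkn2c*, an inhibitor of the kinases CDK4 and CDK6, went from 7.03, 6.96 and 6.9996 on day 12 to 8.47, 8.63 and 8.82 in VEH, a rise of 1.64 (SE 0.11, adjusted p = 9.5e-08) or 3.12-fold. *Cdk4* itself went from 9.80, 9.56 and 9.92 to 10.24, 10.20 and 10.22 (0.46, adjusted p = 0.0036). Its partners *Ccnd1* and *Ccnd3* rose by 0.34 and 0.32 (adjusted p = 0.0074 and 0.0019). The inhibitor and the kinase it binds were thus both higher, and the groups lay far apart in *Cdkn2c*.

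Outside these lists, the largest rises belonged to genes of many kinds. *Gabrg3*, a subunit of the GABA-A receptor, had the largest of all, from 7.69, 7.98 and 7.90 to 10.52, 10.40 and 10.28 (2.54, SE 0.08, adjusted p = 1.2e-10), 5.83-fold. *Rtn1*, a reticulon of neuroendocrine cells, went from 6.22, 6.30 and 6.21 to 8.82, 8.26 and 8.52, 4.89-fold. *Kcnq1*, a voltage-gated potassium channel, went from 6.72, 6.74 and 6.74 to 8.67, 8.91 and 8.56, 3.96-fold. In each of these genes the day 12 arrays lay close together. The largest rises and falls were named only from genes whose groups did not overlap, so their separation follows from that choice.

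*Glod5*, a protein with a glyoxalase domain, went from 7.998, 8.49 and 8.22 to 10.41, 10.10 and 10.23, 4.02-fold. *Gpc1*, a heparan sulfate proteoglycan of the cell surface, went from 7.91, 7.85 and 7.85 to 9.48, 9.60 and 9.69, 3.3-fold. *Gnmt*, a glycine methyltransferase that uses up methyl groups, went from 5.56, 5.68 and 5.69 to 8.14, 7.07 and 7.30, with VEH replicate 1 well above the other VEH arrays. *Nnat*, a small membrane protein of the endoplasmic reticulum, rose by 1.64, and *Selenom*, a selenoprotein of the same compartment, by 1.68.

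Of secreted proteins best known from the liver, *C6*, a complement component, went from 7.11, 7.47 and 7.16 to 8.64, 8.78 and 8.96 (1.54, SE 0.11, adjusted p = 1.9e-07), and *Fgg*, the gamma chain of fibrinogen, from 6.77, 8.03 and 6.88 to 8.61, 8.80 and 9.13 (1.62, SE 0.26, adjusted p = 0.00086). Day 12 replicate 2 was the highest day 12 array in *Fgg* and still below every VEH array. *Mfap3l* ran from 7.31 to 8.61 within VEH, a wide spread, and rose by 1.47. *Cnih2*, a partner of AMPA receptors, rose by 1.57, *Mal2*, a protein of membrane traffic, by 1.44 and *Lhfpl1* by 1.43. *Rab27a*, a GTPase that docks secretory vesicles, went from 7.09, 7.59 and 7.43 to 8.70, 8.42 and 8.95 (1.32, SE 0.14, adjusted p = 1.4e-05).

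Among the largest falls outside lipid and steroid synthesis was *Atp6v0d2*, a tissue-restricted subunit of the vacuolar proton pump. It went from 8.09, 8.35 and 8.45 to 6.08, 5.90 and 5.88 (-2.34, SE 0.10, adjusted p = 1.2e-09), 5.05-fold lower. *Clec2d2*, a lectin-like ligand of natural killer cell receptors, went from 9.39, 9.59 and 9.55 to 7.20, 8.47 and 7.62 (-1.75, SE 0.21, adjusted p = 5.4e-05). It belongs to a family of close copies, so its probe set may share signal with them, and VEH replicate 2 was well above the other VEH arrays.

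The levels of leading genes in the other day 16 groups are given as means of 3 arrays, with no test. *Akr1c3* averaged 9.29 on day 12 and 6.55 in VEH, against 8.18 in AI and 10.69 in AI+E2. *Cyp17a1* averaged 7.88 on day 12 and 6.37 in VEH, against 10.86 and 7.45. *Cyp19a1* averaged 11.45 on day 12 and 12.09 in VEH, against 11.82 and 11.27. The mean over the 18 cholesterol synthesis genes, 9.88 to 9.99 in the day 12 arrays and 8.54 to 8.70 in the VEH arrays, was 10.36 in AI and 9.38 in AI+E2. *Cdkn2c* averaged 6.996 on day 12 and 8.64 in VEH, against 6.91 and 6.93, so that its AI and AI+E2 means were close to the day 12 mean and just below it. *Kcnq1* averaged 6.73 on day 12 and 8.71 in VEH, against 6.79 and 6.91, both just above the day 12 mean. The endothelial list, with a mean of 8.79 to 8.81 in VEH, averaged 8.40 in AI and 8.48 in AI+E2, within the range of day 12.

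Markers of other cell types that a dissected CL can hold gave few calls, apart from those of red blood cells. None of 14 macrophage, 11 granulocyte and mast cell, 10 fat and 9 oviduct genes rose or fell by limma or by the methods' t-test after adjustment. An unadjusted p under 0.05 in limma was found for 1 macrophage and 1 fat gene, against 22.8% of all genes. The means of macrophage markers were 7.59 to 7.69 in the day 12 arrays and 7.61 to 7.69 in the VEH arrays. Of 12 lymphocyte genes, *Prf1*, the perforin of killer cells, rose by 0.39 (adjusted p = 0.015), a call lost without day 12 replicate 3 or VEH replicate 1 or 2 (0.27, 0.38 and 0.37). Of 6 red blood cell genes 2 rose and 1 fell, against 6.91% and 3.23% of all genes. *Hbb-b1* went from 8.57, 7.84 and 8.80 to 9.59, 8.90 and 9.40 (0.89, SE 0.23, adjusted p = 0.024), *Ahsp* rose by 0.34 and *Slc4a1* fell by 0.29. The globin genes are near copies and may share signal. The call of *Hbb-b1* was lost without day 12 replicate 2 or VEH replicate 1 or 3 (0.61, 0.75 and 0.84). That of *Ahsp* was lost without day 12 replicate 2 or VEH replicate 1 or 2 (0.29, 0.25 and 0.34), and that of *Slc4a1* without day 12 replicate 1 or VEH replicate 1 (-0.26 and -0.22).

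Interferons bind receptors that act through JAK kinases and STAT and IRF factors, and switch on genes that make a cell resist viruses. Many of these genes carry in the promoter an interferon-stimulated response element. In the CL they stood out in 1 day 12 rat. Promoters of the same kind as above are shown for the 3 genes with the largest excess in day 12 replicate 2 among those holding the core letters GAAANNGAAA, which are in capitals on whichever strand they lie and overlap each other in *Oas1b*.
Oasl2, chr12:47383186-47383435 (minus strand): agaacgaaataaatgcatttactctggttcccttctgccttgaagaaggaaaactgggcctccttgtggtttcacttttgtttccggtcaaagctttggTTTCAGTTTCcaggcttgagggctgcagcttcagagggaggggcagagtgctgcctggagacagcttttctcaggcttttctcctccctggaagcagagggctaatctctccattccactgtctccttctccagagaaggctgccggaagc
Irf7, chr1:205800024-205800273 (minus strand): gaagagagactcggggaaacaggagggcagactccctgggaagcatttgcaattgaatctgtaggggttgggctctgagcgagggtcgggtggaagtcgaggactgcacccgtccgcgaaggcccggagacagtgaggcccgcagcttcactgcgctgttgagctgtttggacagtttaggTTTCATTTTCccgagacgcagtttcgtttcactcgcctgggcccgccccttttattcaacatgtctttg
Oas1b, chr12:41395853-41396102 (minus strand): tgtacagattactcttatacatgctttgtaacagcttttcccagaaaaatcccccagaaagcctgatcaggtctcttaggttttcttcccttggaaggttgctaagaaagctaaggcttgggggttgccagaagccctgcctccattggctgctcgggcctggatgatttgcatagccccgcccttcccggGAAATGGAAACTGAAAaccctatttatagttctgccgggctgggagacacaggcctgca
The core letters lay in 17 of 27 promoters held for the interferon-stimulated effectors (63%), in 3 of 12 of the signalling and sensor list and in 9 of 18 of the interferon gamma and antigen presentation list, against 3.24% of all 11950 genes with a promoter.

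Day 12 replicate 2 was the highest of the 6 arrays in 31 of 36 measured effectors (86.1%) and in 12 of 17 signalling and sensor genes (70.6%), against 19.9% of all genes. It was at least 1 above both other day 12 arrays in 19 of the 36 and 5 of the 17, against 34 of all 14509 genes (0.234%). The array was singled out for these genes and the lists were written with earlier results known, so these counts are a description and no test. The mean over the effectors was 7.30 and 7.34 in day 12 replicates 1 and 3, 8.52 in replicate 2 and 7.78 to 7.82 in the VEH arrays. The AI and AI+E2 groups averaged 7.67 and 8.05. The VEH arrays thus lay between the day 12 rat with high and the rats with low levels, and close to each other.

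*Herc6*, a ligase of the ubiquitin-like ISG15, was measured at 7.35, 10.51 and 7.62 on day 12 and at 8.44, 8.39 and 8.34 in VEH, so that replicate 2 was 8.14-fold above the mean of replicates 1 and 3. *Mx1*, an antiviral dynamin-like GTPase, had 6.56, 9.36 and 6.44 on day 12 and 7.20, 7.05 and 6.99 in VEH, and its relative *Mx2* had 6.995, 10.03 and 7.15 and then 8.25, 8.53 and 8.56. *Isg15* had 6.59, 8.64 and 6.87 on day 12 and 7.51, 7.27 and 7.52 in VEH, and *Usp18*, the protease that removes ISG15, had 5.41, 8.93 and 5.81 on day 12 and 6.83, 6.83 and 7.64 in VEH, with replicate 2 9.96-fold above replicates 1 and 3. In each of these genes every VEH array lay above day 12 replicates 1 and 3 and below replicate 2.

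*Irf7*, the factor that raises interferon genes, had 7.48, 9.43 and 7.25 on day 12 and 8.12, 8.36 and 8.26 in VEH. *Oasl2*, of the oligoadenylate synthetase family, had 6.46, 8.83 and 6.52 on day 12 and 7.83, 7.67 and 8.02 in VEH, and its relative *Oas1b* had 5.71, 7.47 and 5.51 and then 6.62, 6.71 and 6.67. The pattern was that of *Herc6*. *Oas1a* differed, with 7.70, 9.12 and 7.73 on day 12 and 8.39, 9.31 and 8.47 in VEH, where VEH replicate 2 was the highest array. The *Oas1* genes are close copies and their values are uncertain for that reason.

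With all 6 arrays, 1 of 36 effectors rose (*Slfn2*, 0.60, adjusted p = 0.017) and 0 fell, and 1 of 17 signalling genes rose (*Irf8*, 0.45, adjusted p = 0.0031), against 6.91% of all genes. Day 12 replicate 2 was singled out for its high levels of these same genes, and leaving it out lowers their day 12 mean, so values without it are a description and no test. Without it the median difference went from 0.044 to 0.442 in the effectors and from 0.097 to 0.236 in the signalling genes. In that fit 24 of the 36 and 7 of the 17 were past the threshold upwards and 0 downwards, where 5.98% of all genes were past it upwards and 3.14% downwards. All VEH arrays lay above day 12 replicates 1 and 3 in 29 of the 36, against 16.7% of all genes. With 2 day 12 arrays the spread of that group rests on the spread of the others.

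With all arrays *Mx2*, *Oasl2*, *Usp18* and *Herc6* differed by 0.39, 0.57, 0.38 and -0.10, and none was called (adjusted p = 0.71, 0.45, 0.76 and 0.93). From day 12 replicates 1 and 3 alone, the VEH arrays differed by 1.37, 1.35, 1.49 and 0.91. *Rig1*, the RNA sensor RIG-I, and *Irf9* differed from them by 0.77 and 0.58. For *Slfn2* that difference was 0.82, and its call with all arrays was lost without day 12 replicate 1 or 3 or VEH replicate 1 or 2 (0.45, 0.52, 0.54 and 0.57). *Stat2*, *Ifi44l*, *Rsad2* and *Cxcl10* were high in replicate 2, and their differences without it were 0.05, 0.01, 0.14 and -0.23.

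**Figure D5:**
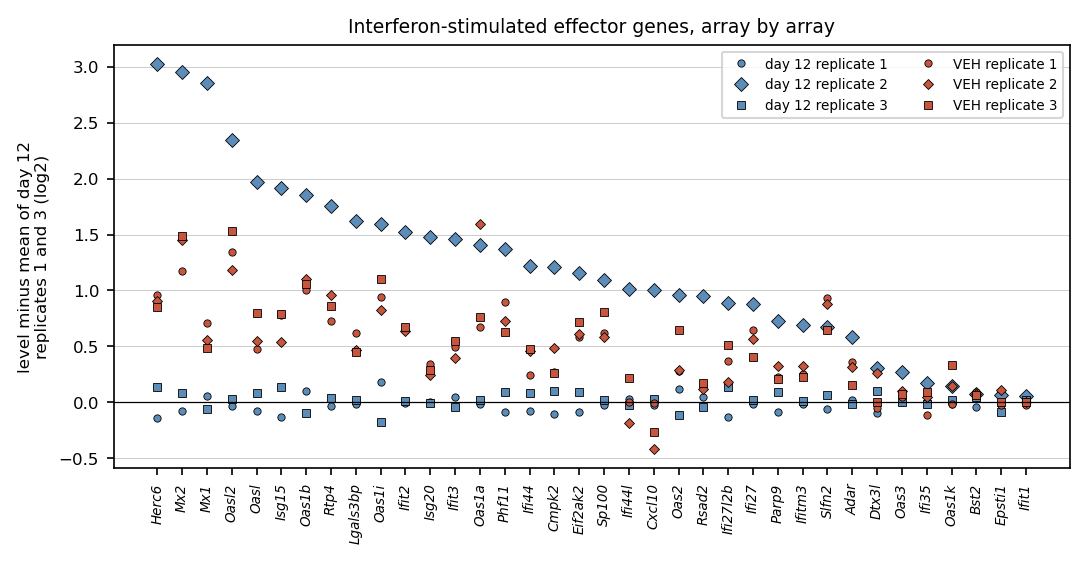
Levels of 36 interferon-stimulated effector genes in each of 6 arrays, as the difference (log2, vertical axis) from the mean of day 12 replicates 1 and 3, ordered by day 12 replicate 2 (large blue diamonds). That array stands at the top for 31 genes, and the red VEH points lie mostly between it and 0, above both other day 12 arrays in 29 genes.

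Of 20 genes of interferon gamma and antigen presentation, 0 rose and 0 fell with all arrays by limma or by the methods' t-test after adjustment. Of these 20, 1 had an unadjusted p under 0.05 in limma, against 22.8% of all genes. Day 12 replicate 2 was highest in 14 of them, by smaller margins, with 1 gene at least 1 above both other day 12 arrays. Without it 1 of the 20 was past the threshold, *Irgm*, a GTPase of the interferon gamma response (0.28 with all arrays and 0.63 without). *Gbp2* had 8.21, 9.20 and 8.29 on day 12 and 8.36, 8.31 and 8.25 in VEH, *Tap1*, the peptide transporter, had 7.60, 8.61 and 7.75 on day 12 and 7.97, 7.83 and 7.42 in VEH, and *Cd74*, of class II presentation, had 10.87, 11.40 and 11.004 on day 12 and 11.35, 10.93 and 10.88 in VEH. All 3 were highest in replicate 2, and in none did every VEH array lie above both other day 12 arrays. The remaining genes of the list differed by -0.31 to 0.39.

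The ligand genes *Ifnb1*, *Ifna4*, *Ifng* and *Ifnk* lay between 5.05 and 6.67 in all 6 arrays, low on the array scale, with differences of -0.06, -0.10, 0.04 and -0.02 (adjusted p = 0.67, 0.44, 0.79 and 0.92). Of the receptor genes *Ifnar1* and *Ifngr2* did not pass the test (-0.01 and -0.16), *Ifngr1* rose by 0.29 and *Il10rb* fell by 0.25. The call of *Ifngr1* was lost without day 12 replicate 1 or 2 or VEH replicate 1, 2 or 3 (0.30, 0.20, 0.32, 0.29 and 0.25), and that of *Il10rb* without day 12 replicate 2 or 3 or VEH replicate 1 or 2 (-0.24, -0.23, -0.25 and -0.22). Markers of blood cells in day 12 replicate 2 had means of 7.69 for macrophages, 6.63 for lymphocytes and 5.53 for granulocytes and mast cells. In day 12 replicates 1 and 3 these were 7.60 and 7.59, 6.56 and 6.46, and 5.63 and 5.54. Their part in the interferon genes was not tested.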

How the data were processed

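Total RNA of CL from 12 rats was hybridised by the authors to Affymetrix Rat Gene 1.0 ST arrays. Per the labels, the deposited values are log2 levels made with RMA in R 2.12.2. Of 29214 probe sets, 15310 carried 1 gene symbol, 323 several and 13581 none in the platform annotation, and 3 more were named from the probe list of the study. Of genes with several probe sets (527), the one of highest mean was used, giving 14509 genes. limma 3.58.1 (R 4.3.3, lmFit and eBayes) was fitted to all 12 arrays with 4 groups, and tested on simulated data. The 15 largest rises and falls without overlap, up to 5 called members of each list, all steroid enzyme and interferon genes and 10 chosen genes were named. The members and lists were chosen with earlier results of these data known. Each rat is a separate animal. The replicate numbers do not pair rats: deviations of same-numbered rats correlated at -0.119, 0.02 and -0.158. The number of arrays limits the precision. Promoters are RefSeq (GRCr8). The comparisons of AI and AI+E2 were not made here.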

Additional observations from a re-analysis of the deposited data

How the results depend on the processing

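The main counts were 1003 rises and 469 falls. Fitted on the 6 arrays alone, 659 genes rose and 258 fell. Quantile normalization applied again gave 928 rises and 778 falls. The methods' t-test called 33 rises and 24 falls after Benjamini-Hochberg adjustment, with 22 and 19 at 1.5-fold and 14 and 13 at 2-fold, and 1256 rises and 992 falls at an unadjusted threshold. Over all probe sets, 285 rose at 1.5-fold and 121 at 2-fold, where sets without a symbol also count. With the replicate block 883 genes rose and 385 fell, and 13 of the 154 named calls were lost, but the numbers share no rat. Without any 1 array, 654 to 1052 genes rose and 336 to 456 fell, 154 to 207 and 67 to 84 at 1.5-fold and 39 to 47 and 25 to 30 at 2-fold, where the 654 rises were without day 12 replicate 1 and the 336 falls without VEH replicate 1. Of the 154 called named genes, 108 were called the same way without any 1 array, and between 0 and 42 were lost in each other setting but the methods' t-test, where 133 were lost. *Ldha* (0.44) reversed to -0.22 (adjusted p = 0.78) when its probe sets were averaged, since a second set differed by -0.88. Of 81 interferon genes, 3 were past the threshold upwards with all arrays, against 6.91% of all genes. Without day 12 replicate 2, which was singled out for being high in them, 32 were past it, against 5.98% of all genes. Leaving out that array is a description and no test. Of the 32, 9 had a difference below 0 with all arrays. Without any 1 array the differences of these 9 ran, for *Cmpk2* -0.32 to 0.34, *Herc6* -0.68 to 0.91, *Ifi44* -0.26 to 0.39, *Ifih1* -0.29 to 0.33, *Ifit3* -0.27 to 0.48, *Isg20* -0.45 to 0.29, *Lgals3bp* -0.30 to 0.51, *Mx1* -0.88 to 0.58 and *Oasl* -0.42 to 0.61, each highest without that array. For the other results the cause was not tested.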

Other observations

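Genes of 5 further lists moved in both directions. In the respiratory chain and ATP synthase list 4 of 28 measured genes rose and 2 fell, against 6.91% and 3.23% of all genes. *Ndufb8*, a subunit of complex I, went from 7.86, 7.59 and 7.93 on day 12 to 8.63, 8.49 and 8.38 in VEH (0.71, SE 0.09, adjusted p = 0.00011, limma), while *Sdha* and *Sdhb*, of complex II, differed by -0.32 and -0.28 and their partner *Sdhc* by 0.34. Of 20 genes of glycolysis and glucose uptake 1 rose and 3 fell. *Slc2a1*, the glucose transporter GLUT1, went from 8.31, 8.36 and 8.29 to 7.94, 7.71 and 7.76 (adjusted p = 7.7e-05), and *Pfkp* and *Aldoc* differed by -0.43 and -0.46. Of 16 genes of amino acid and urea cycle enzymes 4 rose and 2 fell. *Odc1*, the first enzyme of polyamine synthesis, went from 9.96, 10.02 and 10.09 to 11.20, 11.12 and 11.09 (1.12, SE 0.06, adjusted p = 1.3e-08), and *Bcat1* and *Bcat2*, which start the breakdown of branched-chain amino acids, rose by 0.48 and 0.42. In fatty acid oxidation 3 of 17 rose and 1 fell, with *Acads* at 0.42 and *Acadm* at -0.49, dehydrogenases of short and of medium chains. The other rises were *Ehhadh* (0.26) and *Slc25a20* (0.29). That of *Ehhadh* was lost without day 12 replicate 1 or 3 or VEH replicate 1 or 3 (0.19, 0.26, 0.26 and 0.20). That of *Slc25a20* was lost without day 12 replicate 1 or VEH replicate 1 or 2 (0.22, 0.22 and 0.29). Of 16 genes of the vacuolar proton pump 3 rose and 3 fell, and *Atp6ap2*, an accessory protein, went from 9.78, 9.79 and 9.92 to 9.25, 9.19 and 9.23 (-0.61, adjusted p = 6e-06). The 3 rises, *Atp6v0d1*, *Atp6v0e1* and *Atp6v1f*, lost their calls without day 12 replicate 2 (0.21, 0.21 and 0.28), as without some other arrays. Calls of *Ndufb5*, a rise of the respiratory chain list, and *Got1*, a fall of the amino acid list, were lost in the same way (0.24 and -0.20).

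The counts that follow stand beside shares of 6.91% rises and 3.23% falls over all genes. Of 19 chaperones and stress factors of the endoplasmic reticulum 5 fell and 0 rose, 3 to 5 without any 1 array. *Calr* and *Pdia4* were among the falls, and their calls were lost without day 12 replicate 2 (-0.18 and -0.19), as without some other arrays. *Herpud1*, which takes part in the disposal of misfolded proteins, went from 9.35, 9.47 and 9.50 to 9.06, 9.02 and 8.83 (-0.47, SE 0.07, adjusted p = 0.0004), and *Xbp1*, a factor of the unfolded protein response, and *Canx*, a chaperone, differed by -0.32 and -0.26. Of 23 antioxidant genes 5 rose and 1 fell, with *Gpx3*, *Gstm2* and *Sod3* higher by 0.46, 0.43 and 0.37. *Sod2* was the fall (-0.26), a call lost without day 12 replicate 1 or 3 or VEH replicate 1, 2 or 3 (-0.22, -0.21, -0.27, -0.25 and -0.25). *Prdx6*, another of the rises, lost its call without day 12 replicate 2 (0.25), as without some other arrays. *Ptges*, a prostaglandin E synthase, went from 8.59, 8.61 and 8.71 to 9.46, 9.71 and 9.30 (0.85, SE 0.10, adjusted p = 6.3e-05) and *Ptger3*, a receptor of prostaglandin E, differed by -0.45, as the 2 calls in 16 genes of their list. *Csn1s1*, a casein, was the 1 rise in 7 milk protein genes, from 5.30, 5.74 and 5.47 to 6.18, 6.80 and 6.92, and averaged 9.94 in AI+E2. *Sfrp4*, a secreted WNT antagonist, was the 1 fall in 14 WNT genes (-0.67, adjusted p = 0.0009). Of 12 genes of iron handling 3 rose and 2 fell. *Slc40a1*, the iron exporter ferroportin, rose by 0.45, *Aco1*, which senses iron, by 0.32 and *Ftl1*, ferritin light chain, by 0.25. *Tfrc*, the transferrin receptor, and *Slc11a2*, an iron transporter, fell by 0.44 and 0.30 (adjusted p = 0.045 and 0.03). *Ftl1* was no longer called without day 12 replicate 1, 2 or 3 or VEH replicate 1 or 2 (0.24, 0.23, 0.26, 0.23 and 0.18), *Tfrc* without day 12 replicate 2 or 3 or VEH replicate 2 or 3 (-0.34, -0.47, -0.28 and -0.44) and *Slc11a2* without day 12 replicate 1 or 3 or VEH replicate 2 or 3 (-0.32, -0.22, -0.24 and -0.27). Of 22 apoptosis genes 2 rose and 1 fell, close to the 6.91% and 3.23% of all genes, with a median difference of -0.01. *Bcl2l11*, which promotes apoptosis, rose by 0.39 and *Xiap*, which inhibits it, fell by 0.48, where a second probe set of *Xiap* differed by 0.01. *Apaf1*, which activates caspases, was the other rise (0.31), a call lost without day 12 replicate 1, 2 or 3 or VEH replicate 1 or 3 (0.34, 0.33, 0.28, 0.25 and 0.27). Of 21 inhibin, activin and BMP genes 1 rose, *Bmp4* by 0.40, and 3 fell. The falls were *Fst*, follistatin, by 0.40, *Bmpr1a*, a BMP receptor, by 0.27 and *Gdf9*, an oocyte factor, by 0.32. The call of *Fst* was lost without day 12 replicate 1 or 3 or VEH replicate 1, 2 or 3 (-0.40, -0.25, -0.46, -0.42 and -0.32), that of *Bmpr1a* without day 12 replicate 1 or 3 or VEH replicate 1, 2 or 3 (-0.26, -0.21, -0.26, -0.26 and -0.28) and that of *Gdf9* without day 12 replicate 1 or 2 or VEH replicate 1 (-0.29, -0.29 and -0.22). Of 14 genes of relaxin and luteal peptide hormones 2 rose and 0 fell, *Rln1*, relaxin, by 0.27 and *Insl6* by 0.29, the latter call lost without day 12 replicate 1 or 3 or VEH replicate 1 or 2 (0.22, 0.29, 0.24 and 0.27). None of 17 immediate early genes rose or fell by limma or by the methods' t-test after adjustment. Of these 17, 3 had an unadjusted p under 0.05 in limma, against 22.8% of all genes.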
